A study of Mus musculus with 11 samples.

Results

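To ask how far the response of mouse dorsal root ganglia (DRGs) to paclitaxel (PTX) depended on *Gpr37l1*, the PTX response of knockout (KO) mice was set against that of wild-type (WT) mice, gene by gene. All 11 RNA-seq libraries of the series were used, and 15087 of the 36670 genes in the table reached a mean of 0.5 FPKM (fragments per kilobase of transcript, scaled to the mapped fragments of the library) over the 11 libraries and were tested. Whole DRGs were taken from controls (3 WT, 3 *Gpr37l1* KO) and at 4 weeks after PTX (3 WT, 2 *Gpr37l1* KO). The KO line, B6;129S5-Gpr37l1tm1Lex/Mmucd, is not restricted to a cell type, so its DRGs cannot separate glial from other sources of the receptor. Library 3 of each group was labelled female and the others male, and the KO PTX libraries carried the numbers 2 and 3. Adult mice were used, and the PTX schedule of the sequenced mice was not stated with the labels. The interaction is the log2 PTX to control difference in KO minus that in WT, so a value above 0 means that the KO response lay above the WT response.

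PTX is a chemotherapy drug that binds beta-tubulin and stabilises microtubules, and pain and numbness from damage to sensory neurons limit its use. DRGs hold the cell bodies of these neurons, and each cell body is wrapped by satellite glial cells that take up potassium and glutamate around it. GPR37L1 is an orphan-type G protein-coupled receptor of satellite glia and astrocytes. The tissue label was met by the marker genes: *Tubb3*, a neuronal tubulin, was at 975 to 1556 FPKM over the 11 libraries, and *Fabp7*, a fatty acid binding protein of satellite glia, at 84.2 to 223 FPKM.

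Library totals fell into separate ranges. 4 libraries (WT control 1, WT PTX 3, KO PTX 2 and KO PTX 3) summed to 52735648 to 56747335 estimated counts, and the other 7 to 68821582 to 80348732. Of the tested genes, 128 (0.848%) were higher in all 4 of these libraries than in any of the other 7, and 126 (0.835%) were lower. Among those above were genes of pluripotent cells that DRGs do not normally express, named here after their values were seen: *Pou5f1* was at 1.67 to 3.48 FPKM in the 4 libraries against 0.00 to 0.04 in the other 7, and *Dppa5a* at 4.89 to 12.7 against 0.44 to 0.75. Both KO PTX libraries and no KO control library belonged to these 4, so in KO mice whatever set the 4 libraries apart and the PTX treatment cannot be told apart. In addition, KO control 3, labelled female, had 0.05 FPKM of *Xist* and 0.02 of *Ddx3y*, where the other female libraries had 8.12 to 9.13 FPKM of *Xist*. Every KO response rests on both low-total KO PTX libraries. Values with a covariate that marks the 4 libraries, or without single libraries, are given beside the main results.

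With edgeR's quasi-likelihood test and Benjamini-Hochberg adjustment, 1 of the 15087 genes (0.00663%) passed an adjusted p of 0.05 for the interaction. This gene was *Pde10a* (ENSMUSG00000023868, chr17:8525372-8986645 of mm10, plus strand), which encodes a phosphodiesterase that breaks down cAMP and cGMP. *Pde10a* was at 1.60, 1.91 and 2.40 FPKM in WT controls and at 2.52, 2.25 and 2.91 after PTX. In KO mice it was at 2.36, 2.22 and 2.44 FPKM in controls and at 0.22 and 0.22 after PTX. The KO PTX libraries thus lay far below the other 9, among which the groups lay close together. The estimated counts behind these levels were 169 and 174 in the KO PTX libraries. They were 2428 to 2604 in the KO controls and 1176 to 2794 in the WT libraries. The part of depth in the difference was not tested. The log2 PTX difference was 0.38 in WT and -3.44 in KO, and the interaction was -3.82 (SE 0.18, adjusted p = 1.5e-05 with edgeR). An exact permutation test on the interaction contrast (two-sided, treatment labels rearranged within genotype in all 200 ways, smallest possible p 0.005) gave p = 0.01. Its null is no PTX effect in either genotype, so it does not test equal PTX effects alone.

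The difference at *Pde10a* was as large when the 4 low-total libraries were marked by a covariate, which gave an interaction of -3.73, although this covariate is informed by the WT libraries only. In WT mice the low-total libraries WT control 1 and WT PTX 3 had 1.60 and 2.91 FPKM of *Pde10a*, so neither was near the level of the KO PTX libraries. Of its neighbours, 8 other tested genes lay within 1000000 bases of *Pde10a*, and the lowest unadjusted interaction p among them was 0.10. That value belonged to *Fndc1*, named for its position, at 0.98, 0.65 and 1.27 FPKM in KO controls and 0.41 and 0.69 in KO PTX mice, with a log2 difference of -0.22 in WT and -0.88 in KO (unadjusted p = 0.0098 in KO). Its groups overlapped, and its interaction was -0.66 (SE 0.37). *Sft2d1*, a vesicle traffic gene next to it that was named for its position, had an interaction of 0.03 (unadjusted p = 0.87). The lists of genes that act on or respond to cyclic nucleotides had small median interactions. Of the 17 tested phosphodiesterase genes, *Pde10a* was the 1 gene with an unadjusted interaction p under 0.05, and the median interaction of the list was 0.05 against -0.01 over all tested genes. *Pde1b*, a calcium-dependent phosphodiesterase, was at 1.76, 1.14 and 1.94 FPKM in KO controls and 2.28 and 3.33 in KO PTX mice, with an interaction of 0.51 (SE 0.28). The 15 tested adenylyl cyclase and cAMP-dependent kinase genes had a median interaction of -0.06, with 1 gene above 0 and 1 below 0 at an unadjusted p under 0.05. Over all tested genes, 3.12% lay above 0 and 3.18% below 0 at that p.

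**Figure D1:**
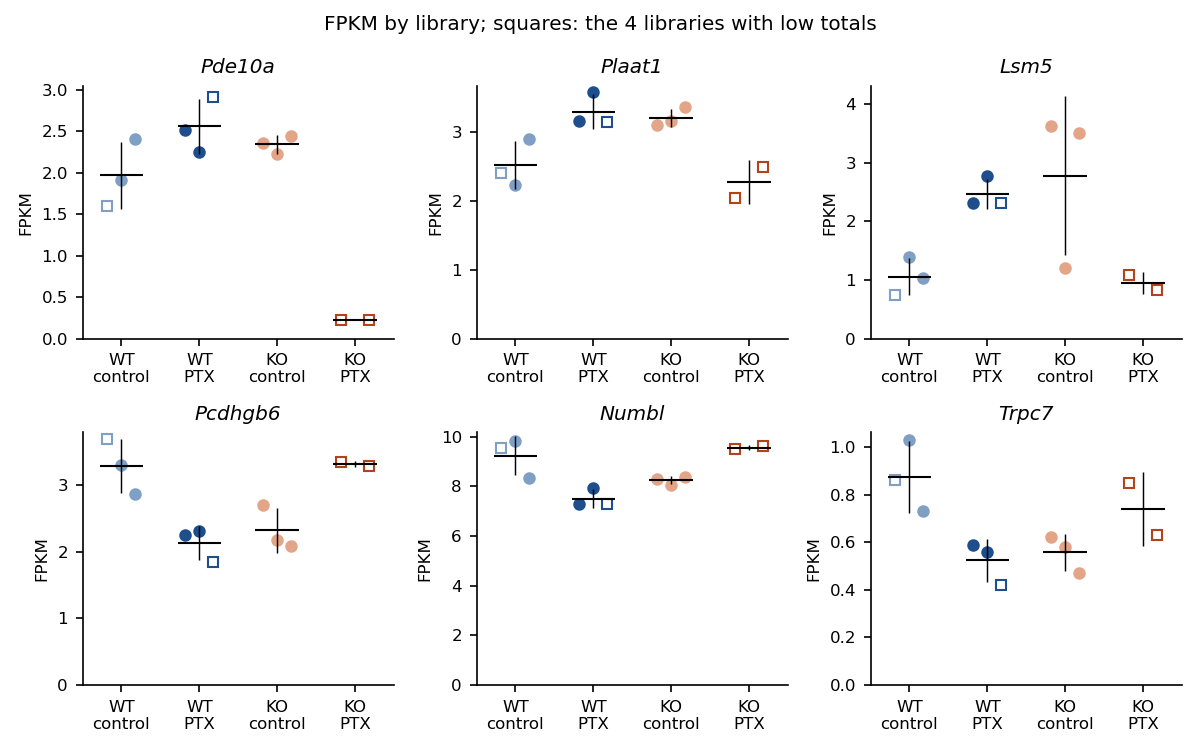
FPKM (linear axis from 0) of 6 genes in each of the 11 libraries, by group, where horizontal bars show the group mean, vertical lines the SD and open squares the 4 low-total libraries. The 2 KO PTX libraries sit at 0.22 FPKM for *Pde10a* while the other 9 lie between 1.60 and 2.91, and the other 5 genes have WT and KO groups that separate in opposite directions.

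DESeq2, run as an alternative on the same counts, called 12 genes (0.0795%) at an adjusted p of 0.05, *Pde10a* among them. The other 11 had an edgeR adjusted p of 0.26 or more. *Pcdhgb6*, a clustered protocadherin of neuronal surfaces, was at 3.68, 3.30 and 2.86 FPKM in WT controls and 2.25, 2.30 and 1.84 in WT PTX mice, against 2.70, 2.17 and 2.08 in KO controls and 3.34 and 3.28 in KO PTX mice. Its groups separated in both genotypes and in opposite directions, and its interaction was 1.19 (DESeq2 adjusted p = 6.6e-06, edgeR adjusted p = 0.26), or 1.12 with the low-total covariate. *Numbl*, an adaptor related to Numb, had the same form of change at a higher level. It was at 9.56, 9.82 and 8.34 FPKM in WT controls, 7.29, 7.95 and 7.28 in WT PTX, 8.31, 8.08 and 8.37 in KO controls and 9.50 and 9.64 in KO PTX mice, with an interaction of 0.53 (DESeq2 adjusted p = 0.044), or 0.47 with the low-total covariate.

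*Plaat1*, a phospholipid acyltransferase, took the reverse course. It was at 2.40, 2.23 and 2.90 FPKM in WT controls and 3.15, 3.58 and 3.14 after PTX, and at 3.09, 3.16 and 3.35 in KO controls and 2.04 and 2.49 after PTX (interaction -0.92, DESeq2 adjusted p = 0.044, or -0.82 with the low-total covariate). *Lsm5*, a subunit of the ring that binds U6 snRNA, was at 0.75, 1.39 and 1.03 FPKM in WT controls against 2.32, 2.77 and 2.31 in WT PTX mice, and at 3.62, 1.21 and 3.51 in KO controls against 1.08 and 0.82 in KO PTX mice. Its groups also separated in both genotypes, but 1 KO control lay close to the KO PTX libraries. *Tdg*, a thymine DNA glycosylase, was at 4.89 ± 0.42 FPKM (SD) in 3 WT controls and 2.82 ± 0.16 in 3 WT PTX mice, and at 4.46 ± 1.22 in 3 KO controls and 5.37 ± 0.67 in 2 KO PTX mice. *Hmgb2*, a chromatin protein of dividing cells, had an interaction of 1.40 and *Ppia*, the cyclophilin A gene, one of -0.81. *Ppia* was at 120 and 144 FPKM in KO PTX mice and at 189 to 288 in the other 9 libraries, and it has many near-identical processed copies, so its count is uncertain. The other 4 genes were *Zfp42*, *Klk1b22*, *Gm29719* and the processed pseudogene *Gm10036*. *Klk1b22* was listed at 0 in 8 libraries, so no fold is given for it. *Zfp42*, a gene of pluripotent cells, was at 0.96 to 1.85 FPKM in the 4 low-total libraries and listed at 0 in the other 7, so its call followed the division by total.

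Across the 15087 tested genes the PTX responses of the genotypes were weakly related. Pearson's r between the WT and KO log2 differences was 0.163 and Spearman's rho 0.0886, a description across genes that are not independent replicates and that share the fitted sex term. The responses had opposite signs for 7204 genes (47.7%). The spread of the log2 differences over genes was 0.396 (SD) in WT and 0.407 in KO, but the SD is set by few genes. The median absolute deviation was 0.137 in WT and 0.0970 in KO, against a median SE for a single gene of 0.123 in WT and 0.138 in KO. The typical KO difference was thus no larger than its error, and such error weakens any correlation. By level, rho was 0.0704 for the 1996 genes at 0.5 to 1 FPKM, 0.0842 for the 5750 at 1 to 5, 0.0820 for the 4984 at 5 to 20 and 0.163 for the 2357 at 20 FPKM and above. Pearson's r depended more on level: it was -0.131 at 0.5 to 1 FPKM, 0.337 at 1 to 5, 0.243 at 5 to 20 and 0.222 from 20, and 0.310 over the genes with at least 1 FPKM.

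The correlation depended on single libraries. Leaving out 1 library at a time gave a rho from -0.0805, without KO control 3, to 0.226, without KO PTX 3. It was -0.0776 without KO PTX 2 and -0.0190 without WT PTX 3, so the sign of the relation changed with the removal of any 1 of 3 libraries. With the low-total covariate rho was 0.282, and with the spinal cord marker level as a covariate it was 0.361. Without WT control 1 and WT PTX 3, which leaves low totals in the KO PTX group alone, rho was -0.0115. The part of the low-total libraries in the main value beyond these figures was not tested.

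**Figure D2:**
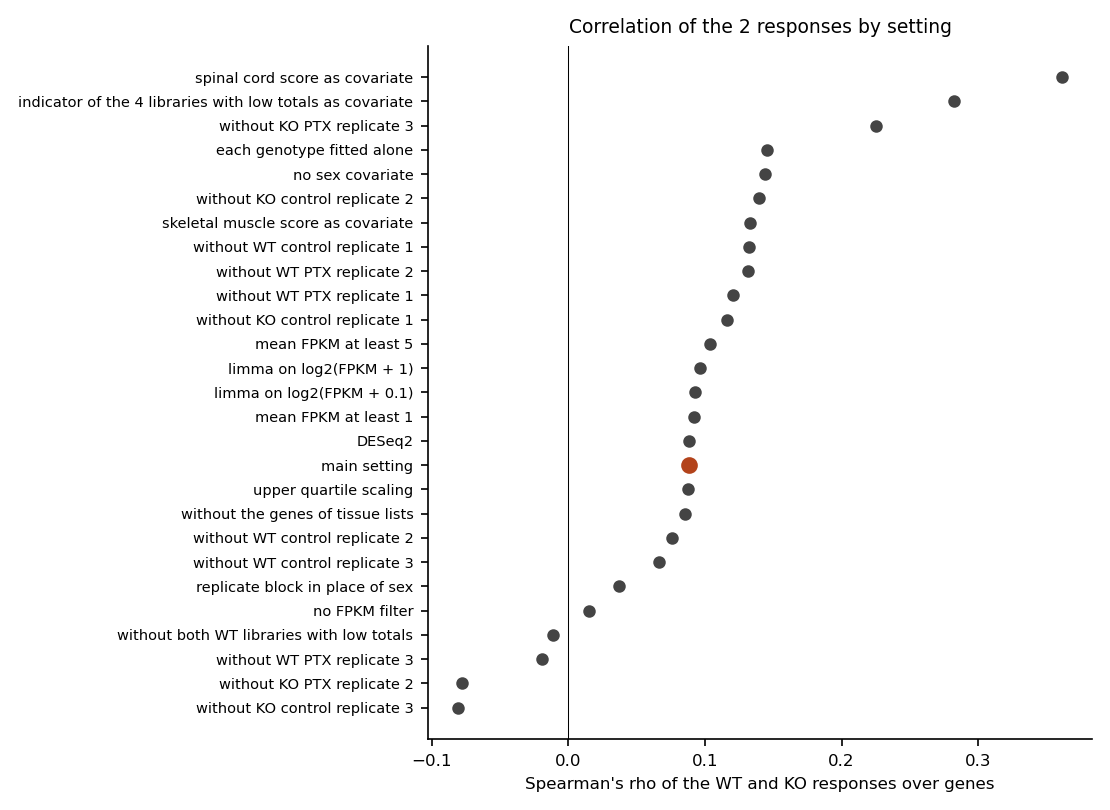
Spearman's rho between the WT and KO PTX responses over the tested genes for the analysis as reported and for each alternative, including each library left out. The values run from -0.0805 to 0.361 and fall on both sides of 0.

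Genes with a response in each genotype at an unadjusted edgeR p under 0.05 were fewer in KO, where 2 libraries stood against 3. In WT, 994 genes (6.59%) were higher and 1036 (6.87%) lower after PTX, and in KO 264 (1.75%) were higher and 388 (2.57%) lower. After adjustment 1 gene passed in WT (0.00663%), the clock gene *Per3*, and 1 in KO (0.00663%), *Pde10a*. The genes below an unadjusted p of 0.05 in both genotypes numbered 108, and the responses of 24.07% of these had opposite signs. For the interaction, 471 genes (3.12%) lay above 0 and 480 (3.18%) below 0 at an unadjusted p under 0.05, or 951 genes in all.

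A separate description, which uses no p-value, counts genes whose PTX and control libraries did not overlap in either genotype. 147 genes (0.974%) separated in opposite directions, 67 of them higher after PTX in WT and lower in KO and 80 the reverse, and 306 (2.03%) separated in the same direction. With so few libraries per group, random order alone also separates genes in this way. The 147 genes are thus a description and are not called as changed. Pseudogenes made up 11.6% of the 147 genes, 5.56% of the 306 and 6.52% of all tested genes. Among the 10 genes with the largest interaction in each direction, 9 of 20 were pseudogenes, such as *Gm6663*, *Gm5605*, *Gm12275* and *Gm4596*, whose reads may be shared with their parent genes.

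*Atxn7*, a subunit of the SAGA histone acetyltransferase complex, was among the genes higher in WT and lower in KO. It was at 0.04, 1.75 and 0.14 FPKM in WT controls and 2.38, 2.40 and 2.27 after PTX, and at 2.28, 2.24 and 2.33 in KO controls and 2.20 and 1.92 after PTX. Its KO difference was -0.07 on the log2 scale, so the separation in KO was slight, and its interaction ranged from -4.82 to -1.14 over the alternatives. On the other side stood *Aif1*, which encodes the macrophage and microglia protein IBA1. *Aif1* was at 1.67, 0.97 and 1.09 FPKM in WT controls and 0.62, 0.91 and 0.32 in WT PTX mice, but at 0.66, 0.67 and 0.61 in KO controls and 1.01 and 0.93 in KO PTX mice. Its interaction was 1.70 (SE 0.48, edgeR adjusted p = 0.72), or 1.77 with the low-total covariate. *Lst1*, another gene of myeloid cells, *C1qtnf4*, a secreted C1q-like protein, and *Arhgef19*, a guanine nucleotide exchange factor, were in the same group. *Trpc7*, a cation channel opened downstream of phospholipase C, was at 0.86, 1.03 and 0.73 FPKM in WT controls and 0.59, 0.56 and 0.42 after PTX, and at 0.62, 0.58 and 0.47 in KO controls and 0.85 and 0.63 after PTX. The *Trpc7* interaction was 1.22 (SE 0.25, edgeR adjusted p = 0.72), so like every gene apart from *Pde10a* it did not pass.

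**Figure D3:**
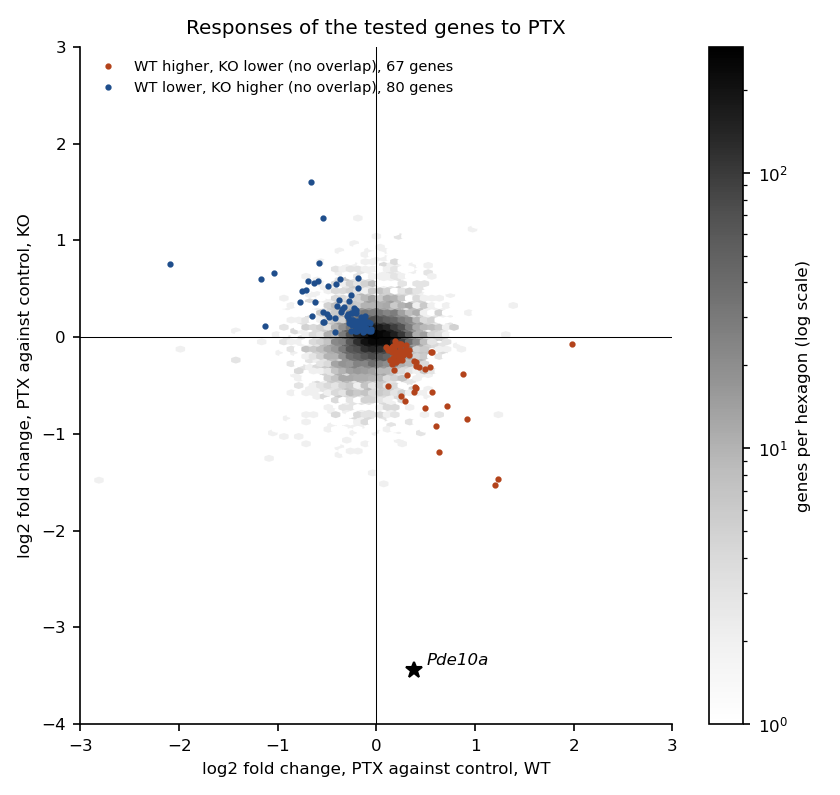
Log2 PTX to control difference in WT (horizontal) against that in KO (vertical) for the tested genes, shaded by the number of genes on a log scale, with 33 genes beyond the drawn range. The 67 genes higher in WT and lower in KO without overlap are red, the 80 with the reverse are blue, and the star is *Pde10a* at 0.38 and -3.44, while the cloud as a whole has no clear slope.

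To describe functional classes, 48 gene lists for DRG cell types, pathways and protein families were followed. A class was taken to respond in opposite directions when its median log2 PTX difference, relative to the median of all tested genes, was at least 0.1 above 0 in one genotype and at least 0.1 below 0 in the other. In bulk tissue, fewer cells of a type and less RNA per cell cannot be told apart, and this holds for every class below. 2 classes met the rule: the cell cycle genes and the spinal cord neuron list, of which 1 gene, *Slc5a7*, was tested, so that it describes a single gene. 10 classes were lower in both genotypes, 3 higher in both, 12 lower in WT only, 4 higher in WT only, 2 higher in KO only and 2 lower in KO only. The remaining 13 stayed under 0.1 in both. These groups follow from the limit of 0.1 and not from a test of the difference: p53 targets, for example, counted as lower in WT only at -0.11 in WT and -0.07 in KO.

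**Figure D4:**
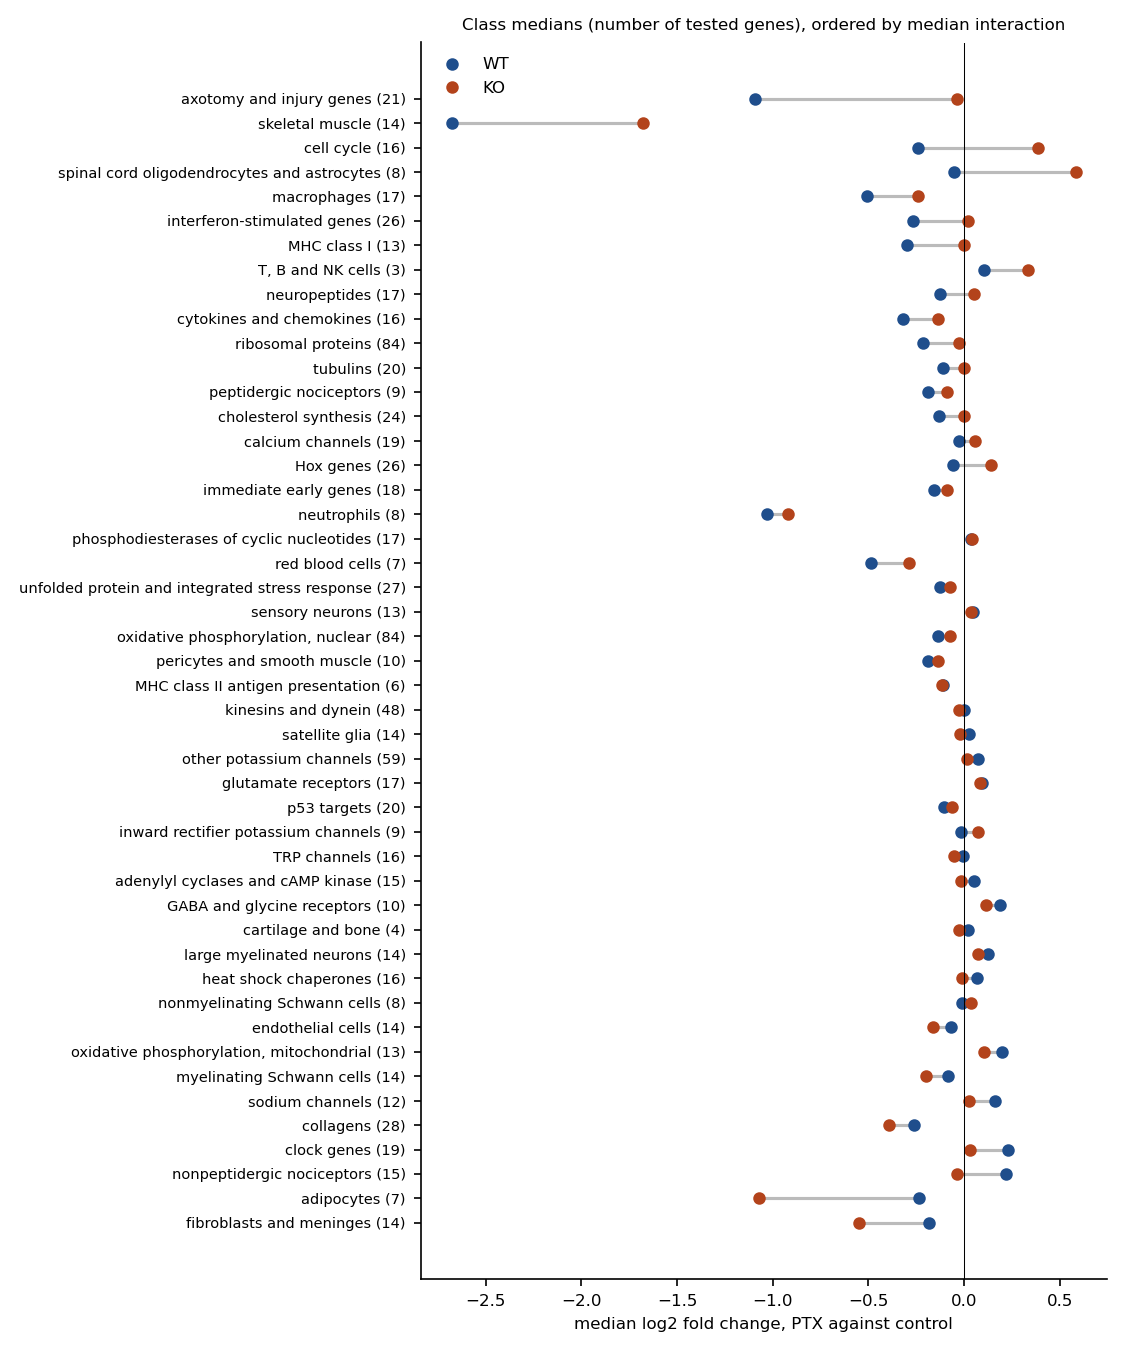
Median log2 PTX to control difference of the tested genes of each of 47 classes with at least 3 tested genes, in WT (blue) and KO (red). The cell cycle class has its WT point at -0.24 and its KO point at 0.38, and the injury class has the widest gap, from -1.09 to -0.03.

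The cell cycle class held 16 tested genes, among them the MCM helicase subunits that license replication origins. Its median log2 difference was -0.24 in WT and 0.38 in KO, with a median interaction of 0.62. The interaction was above 0 for 15 of the 16, where 48.2% of all tested genes were, and WT and KO had opposite signs for 12. 2 of the 16 had an unadjusted interaction p under 0.05 with a value above 0, where 3.12% of all tested genes did. *Mcm6* was at 2.88, 2.53 and 2.46 FPKM in WT controls, 1.24, 2.10 and 1.53 in WT PTX, 0.56, 0.43 and 1.33 in KO controls and 1.03 and 1.37 in KO PTX mice, with an interaction of 1.33 (SE 0.48). *Mcm5* was at 2.58, 1.29 and 0.92 FPKM in WT controls and 1.09, 1.06 and 1.56 after PTX, and at 1.02, 0.91 and 0.93 in KO controls and 1.74 and 1.75 after PTX, with an interaction of 1.23 (SE 0.50), or 0.19 with the low-total covariate. In KO the PTX libraries were above all controls for *Mcm5*, while in WT the groups overlapped.

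The cell cycle level moved with the low-total libraries. Its mean log2(FPKM + 1) over the class was 1.58 to 1.69 in the 4 low-total libraries and 1.31 to 1.54 in the other 7, so all 4 lay above all 7. With the low-total covariate the class medians were -0.23 in WT and -0.10 in KO, no longer opposite, and the median interaction was 0.19. With the spinal cord marker level as a covariate the median interaction was 0.16, and over all alternatives it ranged from 0.09 to 0.94 and stayed above 0. The class met the rule of opposite directions in 18 of 25 alternatives, and leaving out WT control 1 alone was enough to end it.

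The mean level of spinal cord oligodendrocyte and astrocyte markers showed the same division of libraries. Of the 8 tested genes, 3 had an unadjusted interaction p under 0.05 with a value above 0, where 3.12% of all tested genes did. The 8 genes had a median of -0.05 in WT and 0.58 in KO and a median interaction of 0.56, with 5 interactions above 0 and 3 below. Their mean log2(FPKM + 1) was 1.55 to 2.29 in the 4 low-total libraries and 1.14 to 1.37 in the other 7. *Mobp*, a myelin protein of the central nervous system, was at 1.16 and 6.11 FPKM in the KO PTX libraries, 1.57 in WT control 1 and 1.17 in WT PTX 3, and at 0.04 to 0.25 in the other 7. *Slc1a2*, the astrocyte glutamate transporter, was at 2.26 and 4.98 FPKM in the KO PTX libraries, 1.90 in WT control 1 and 1.74 in WT PTX 3, and at 0.26 to 0.42 in the rest. For both genes all 4 low-total libraries lay above all 7 others, in WT as in KO. Not every member divided in this way: *Aspa*, *Agt*, *Aqp4*, *Gjb6* and *Slc6a11* overlapped between the 4 and the 7. *Aspa*, for example, was at 5.37 to 6.78 FPKM in the 4 and 5.91 to 7.16 in the 7. With the low-total covariate the median interaction of the list was 0.20. *Hoxd4* and *Hoxb8*, positional transcription factors, had interactions of 1.48 (SE 0.43) and 0.99 (SE 0.33), and the 26 tested Hox genes had a median interaction of 0.10. *Hoxb8* was at 2.69 to 7.32 FPKM in the 4 low-total libraries and 2.57 to 3.95 in the other 7. The mean log2(FPKM + 1) of the Hox genes was 1.90 in KO PTX 2 and 2.20 in KO PTX 3, against 1.77 to 2.07 in KO controls.

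**Figure D5:**
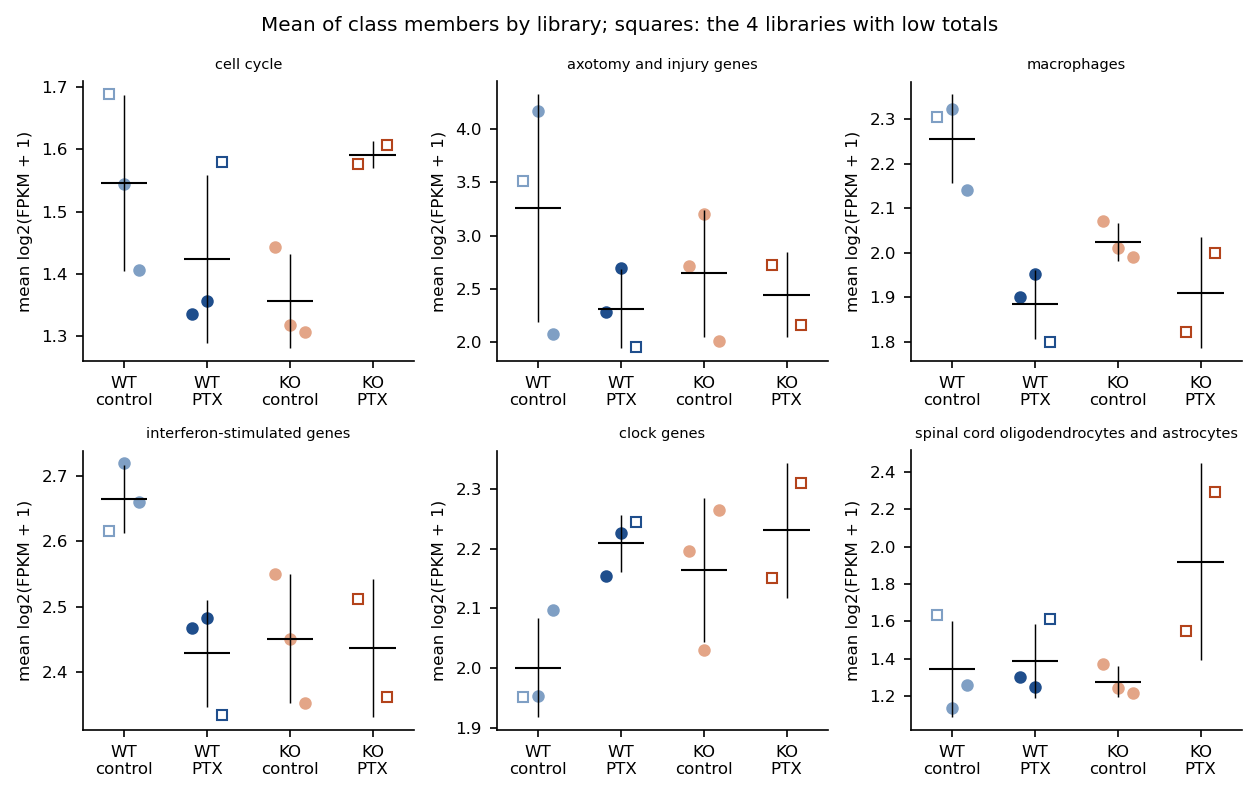
Mean log2(FPKM + 1) over the tested genes of 6 classes in each library, by group, with horizontal lines at the group mean, vertical lines for the SD and open squares for the 4 low-total libraries. The vertical axes do not start at 0. The cell cycle and spinal cord glia levels of the 4 squares lie above all 7 other libraries, whereas the injury level runs from 4.18 in WT control 2 to 1.95 in WT PTX 3 without such a division.

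Genes of axotomy and nerve injury had the largest median interaction of the 48 classes, 1.10. Their median log2 difference was -1.09 in WT and -0.03 in KO, the interaction was above 0 for 20 of 21 tested genes, and 8 had an unadjusted interaction p under 0.05 in that direction, where 3.12% of all tested genes did. In WT, 17 of the 21 were lower after PTX at an unadjusted p under 0.05 (6.87% of all tested genes), and in KO 1 was. *Gadd45g*, a stress-responsive growth regulator, was at 10.4, 14.3 and 4.98 FPKM in WT controls and 4.97, 4.22 and 3.67 after PTX, and at 4.41, 6.64 and 4.45 in KO controls and 6.94 and 5.11 after PTX (interaction 1.45, SE 0.37). *Stmn4*, a neuronal microtubule regulator, was at 19.5, 22.1 and 5.79 FPKM in WT controls and 6.32 to 8.30 after PTX, and at 10.3, 12.5 and 5.20 in KO controls and 10.3 and 8.95 after PTX. In both genes WT controls 1 and 2 were high and WT control 3 was not.

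That division among controls ran through the class. The class level, as mean log2(FPKM + 1), was 3.52, 4.18 and 2.08 in WT controls and 2.28, 2.70 and 1.95 after PTX, and 2.71, 3.20 and 2.01 in KO controls and 2.73 and 2.16 after PTX. The library labelled female was the lowest of every group in this level. *Ecel1*, an endopeptidase of injured neurons, was at 6.31 and 10.3 FPKM in WT controls 1 and 2 and at 0.27 in WT control 3, and at 1.98 and 4.38 in KO controls 1 and 2 and 0.21 in KO control 3. *Atf3*, the injury-induced transcription factor, named after its values were seen, was at 34.8, 60.2 and 2.79 FPKM in WT controls and 5.09, 11.3 and 1.90 in WT PTX mice, and at 8.22, 19.4 and 2.09 in KO controls and 8.89 and 2.67 in KO PTX mice. The larger WT change thus began from WT controls 1 and 2, which lay above every KO library for *Atf3*. The median interaction of the class was 1.17 with the low-total covariate and 0.57 without WT control 2, its lowest value over the alternatives.

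Immune classes differed among themselves. At an unadjusted p under 0.05, 11 of the 17 tested macrophage markers were lower in WT, where 6.87% of all tested genes were. In KO 3 were lower, where 2.57% of all tested genes were. The 17 markers had a median of -0.51 in WT and -0.24 in KO, and 14 had an interaction above 0, where 48.2% of all tested genes did. The median interaction was 0.30, or 0.44 with the low-total covariate and 0.20 without KO PTX 3. *C1qb*, a complement subunit made by macrophages, was at 12.9, 12.6 and 9.15 FPKM in WT controls and 7.33, 7.55 and 4.99 after PTX, and at 8.16, 8.43 and 8.20 in KO controls and 6.89 and 8.49 after PTX. Its groups separated in WT and overlapped in KO, with an interaction of 0.75 (SE 0.25). *Ctss*, a lysosomal protease, had an interaction of 0.94 (SE 0.32). The 16 tested cytokine and chemokine genes had a median interaction of 0.20, with 4 above 0 and 1 below 0 at an unadjusted p under 0.05. Over all tested genes these shares were 3.12% and 3.18%. *Cx3cl1*, the neuronal chemokine fractalkine, was at 2.46 and 5.02 FPKM in KO PTX mice against 1.46 to 1.96 in KO controls (interaction 1.12, SE 0.32). It was at 2.43 to 5.02 FPKM in the 4 low-total libraries and 1.46 to 2.41 in the other 7, and with the low-total covariate its interaction was 0.74. *Csf1*, a macrophage growth factor, had an interaction of 1.06. The 8 tested neutrophil markers were low in both genotypes, with medians of -1.03 in WT and -0.92 in KO, and the 3 tested lymphocyte genes had medians of 0.10 and 0.34. *Lcn2*, a siderophore-binding protein of neutrophils, had an interaction of 2.30 (SE 0.58) at 0.26 to 2.98 FPKM.

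Interferon-stimulated and MHC class I genes had interactions above 0 in most members, by small amounts. Over all tested genes, 48.2% had an interaction above 0, and 3.12% had one above 0 at an unadjusted p under 0.05. Of 26 tested interferon-stimulated genes, 23 had an interaction above 0 and 6 of these an unadjusted p under 0.05, and the class medians were -0.27 in WT and 0.02 in KO. The median interaction of interferon-stimulated genes was 0.30, or 0.45 with the low-total covariate. *Bst2*, the virus-tethering protein tetherin, was at 11.3, 8.64 and 10.7 FPKM in WT controls and 6.66, 7.49 and 7.14 after PTX, but at 6.37, 6.15 and 6.49 in KO controls and 7.45 and 6.76 after PTX (interaction 0.69, SE 0.21). Every KO control of *Bst2* lay below the lowest WT control. *Ifit1* and *Oasl2*, antiviral effectors, had interactions of 0.91 (SE 0.28) and 0.54 (SE 0.16). Of 13 tested genes of MHC class I, 12 had an interaction above 0 and 4 an unadjusted p under 0.05, with medians of -0.30 in WT and -0.00 in KO. *B2m*, the invariant chain, was at 209, 203 and 165 FPKM in WT controls and 167 to 172 after PTX, and at 203, 183 and 178 in KO controls and 220 and 210 after PTX (interaction 0.40, SE 0.12, or 0.23 with the low-total covariate). *Tap1*, the peptide transporter, had an interaction of 0.78 (SE 0.24). The 6 tested MHC class II genes had medians of -0.11 in WT and -0.12 in KO.

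General sensory neuron markers had medians of 0.05 in WT and 0.04 in KO over 13 genes. Markers of nonpeptidergic nociceptors, the small neurons that reach the outer skin, had medians of 0.22 in WT and -0.04 in KO and an interaction below 0 for 12 of 15 genes. The median interaction of nonpeptidergic nociceptors was -0.30, or -0.36 with the low-total covariate. Peptidergic nociceptors, which release pain-related peptides, had medians of -0.19 in WT and -0.09 in KO over 9 genes, and large myelinated neurons 0.12 and 0.07 over 14, with 10 interactions below 0. *Plxnc1*, a semaphorin receptor, was at 24.1, 26.8 and 32.1 FPKM in WT controls and 34.6, 32.5 and 41.4 after PTX, and at 33.6, 30.9 and 33.5 in KO controls and 31.9 and 35.8 after PTX (interaction -0.37, SE 0.12). *Mrgprd*, a receptor that defines these neurons, was at 24.8, 31.2 and 39.98 FPKM in KO controls and 20.7 and 27.3 in KO PTX mice, with a log2 difference of 0.01 in WT and -0.50 in KO. The library labelled female was the highest of each control group for *Mrgprd*, although KO control 3 had 0.05 FPKM of *Xist*. For *Mrgprd* the groups overlapped in both genotypes.

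Ion channel genes had smaller values. Of 12 tested sodium channel genes, 9 had an interaction below 0, and the medians were 0.16 in WT and 0.02 in KO. Over the sodium channels the median interaction was -0.18, or -0.13 with the low-total covariate. *Scn7a*, a sodium sensor, was at 39.98, 46.6 and 56.8 FPKM in WT controls and 56.1 to 59.5 after PTX, and at 54.2 to 57.3 in KO controls and 56.7 and 47.8 after PTX, with an interaction of -0.41 (SE 0.16). The median interaction over 10 tested GABA and glycine receptor genes was -0.07. The 59 other potassium channel genes had a median interaction of -0.03, and the 9 inward rectifiers, a list with channels of glia and of neurons, one of -0.05. Of 17 tested glutamate receptor genes, 3 had an interaction above 0 at an unadjusted p under 0.05, where 3.12% of all tested genes did. The median interaction over the 17 was -0.03, with 8 above 0 and 9 below. Among the 3 was *Gria1*, an AMPA receptor subunit, at 4.52 and 5.47 FPKM in KO PTX mice and 3.30 to 3.65 in KO controls. *Gria1* was at 3.88 to 5.47 FPKM in the 4 low-total libraries and 3.30 to 3.65 in the other 7, and its interaction was 0.43, or 0.17 with the low-total covariate.

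Neuropeptides had medians of -0.13 in WT and 0.05 in KO over 17 tested genes and an interaction above 0 for 12. For neuropeptides the median interaction was 0.21, or 0.27 with the low-total covariate. *Vgf*, a secreted neurotrophin-responsive peptide precursor, was at 74.2, 113 and 33.3 FPKM in WT controls and 32.8, 31.9 and 25.9 after PTX, and at 35.4, 54.7 and 35.4 in KO controls and 44.1 and 31.2 after PTX (interaction 1.12, SE 0.39). *Penk*, the enkephalin precursor, was at 3.87, 2.66 and 2.82 FPKM in KO controls and 5.99 and 6.25 in KO PTX mice, with a log2 difference of 0.02 in WT and 1.04 in KO. *Npy* was listed at 0 in KO control 3 and ranged up to 20.1 FPKM in WT control 2, so its interaction of 4.32 (SE 1.65) is poorly determined. *Vgf*, *Npy* and *Gal* are also induced by nerve injury, and the lists share members.

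Genes of the drug target and of axonal transport had no interaction past the test. The tubulin list had medians of -0.11 in WT and -0.00 in KO over 20 genes. Besides the beta-tubulins that PTX binds, it holds other tubulins and the *Tubgcp* genes of the gamma-tubulin complex, which are not tubulins. *Tubb2b* was at 309, 312 and 201 FPKM in WT controls and 214 to 230 after PTX, and at 213 to 242 over the 5 KO libraries. *Tubgcp4*, of that complex, which nucleates microtubules, was the 1 gene of the list with an unadjusted interaction p under 0.05, at -0.64 (SE 0.23). The 48 tested kinesin and dynein genes had a median interaction of -0.01, with 24 above and 24 below 0.

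Satellite glia, where the receptor is normally made, had medians near 0. The 14 satellite glia markers stood at 0.03 in WT and -0.02 in KO, with 6 interactions above 0 and 8 below. *Gpr37l1* itself was at 35.7, 34.9 and 27.6 FPKM in WT controls, 14.6, 31.7 and 25.0 in WT PTX, 0.21, 0.25 and 0.29 in KO controls and 0.60 and 1.15 in KO PTX mice, which bears out the genotype labels. Its interaction of 2.24 (SE 0.47, edgeR adjusted p = 0.72, exact permutation p = 0.01) compares levels near 0 in KO with a WT change, and the KO PTX values stood in low-total libraries. *Gfap*, an intermediate filament of reactive glia and of astrocytes, was at 3.94, 1.31 and 0.22 FPKM in WT controls, 0.68, 0.26 and 0.98 in WT PTX, 1.84, 1.43 and 0.37 in KO controls and 3.51 and 4.62 in KO PTX mice. Within WT the low-total libraries were the highest of their group for *Gfap*, as in the mean level of the spinal cord list. *Slc1a3*, the glial glutamate transporter, had an interaction of 0.51 (exact permutation p = 0.11). *Slc1a3* was at 2.26 to 2.93 FPKM in the 4 low-total libraries and 1.74 to 2.17 in the other 7, and with the low-total covariate its interaction was 0.19.

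The other genes that the study followed differed little. *Fabp7* was at 221, 223 and 145 FPKM in WT controls, 164, 183 and 98.7 in WT PTX, 141, 168 and 127 in KO controls and 138 and 84.2 in KO PTX mice, and its interaction was 0.09. Interactions were 0.14 for *Gpr37*, the related receptor, 0.19 for *Kcnj10*, the glial potassium channel Kir4.1, -0.31 for *Kcnj3*, a G protein-gated potassium channel, -0.10 for *Glul*, glutamine synthetase, and 0.19 for *Tubb3*. The exact permutation p was 0.375 for *Kcnj3* and 0.8 for *Psap*, the precursor of the saposins. These permutation tests covered 10 genes and are unadjusted. *Il1b*, which encodes an inflammatory cytokine, was below the level filter. The 14 myelinating Schwann cells markers had medians of -0.08 in WT and -0.20 in KO, with 12 interactions below 0. Their median interaction was -0.11, but 0.16 without KO PTX 2 and -0.45 without KO PTX 3. *Ncmap*, a myelin-associated protein, was at 24.8, 33.5 and 20.2 FPKM in KO controls and 17.0 and 19.1 in KO PTX mice (interaction -0.58, SE 0.25).

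Clock genes, which drive daily rhythms in nearly every cell, had a WT change of both arms of the loop and a smaller KO change. Medians were 0.23 in WT and 0.03 in KO over 19 genes. The interaction was below 0 for 15 of these, and for 7809 of all 15087 tested genes. For clock genes the median interaction was -0.25, or -0.21 with the low-total covariate and -0.14 without KO PTX 2. *Per3*, a repressor of the loop, was at 0.79, 0.89 and 1.24 FPKM in WT controls and 1.88, 1.84 and 2.22 after PTX, and at 1.23, 1.12 and 1.80 in KO controls and 1.66 and 2.18 after PTX. The interaction was -0.63 (SE 0.15), or -0.47 with the low-total covariate. *Nr1d2*, a nuclear receptor that represses the activator arm, was at 6.06, 6.69 and 9.24 FPKM in WT controls and 11.82, 11.98 and 11.97 after PTX, and at 10.7, 8.20 and 11.8 in KO controls and 11.3 and 11.3 after PTX (interaction -0.60, SE 0.18). *Ciart*, a repressor of CLOCK and BMAL1, was at 0.63, 0.60 and 0.77 FPKM in WT controls and 1.18, 1.42 and 2.38 after PTX, and at 1.27, 0.98 and 1.71 in KO controls and 1.34 and 2.67 after PTX (interaction -0.81, SE 0.31). For all 3 genes the WT groups separated and the KO groups overlapped, and every KO control lay above the mean of the WT controls. *Arntl*, which encodes the activator BMAL1 and was named after its values were seen, was at 1.05 to 1.13 FPKM in WT controls and 0.35 to 0.65 after PTX, and at 0.71 to 1.06 in KO controls and 0.48 and 0.45 after PTX, so its groups separated in the same direction in both. The hour at which tissue was taken is not given in the sources used here, and its part was not tested.

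The upstream windows of clock genes are shown because 16 of the 19 had a PTX difference above 0 in WT. Over all 15087 tested genes, 7369 did. CLOCK and BMAL1 bind the E-box CACGTG, a palindrome that reads the same on both strands. Windows are the 250 bases before the RefSeq start of a gene in GRCm38.p6, and 6.02% of 32851 such windows hold the E-box. Of the 19 tested clock genes 16 had a window and 5 held an E-box, against 9.76% of the 10683 tested genes with a window. The list was chosen as clock genes, so this share describes the list and not the response to PTX. *Ciart* and *Tef*, a clock output factor, are printed 5′ to 3′ on the strand of the gene with the E-box in capitals. In *Ciart* (chr3:95882229-95882478, minus strand) the E-boxes began 116, 58 and 44 bases before the start, and in *Tef* (chr15:81802423-81802672, plus strand) 127 bases before it. Another *Tef* window (chr15:81811164-81811413, plus strand), not printed, has an E-box 138 bases before its start.
Ciart: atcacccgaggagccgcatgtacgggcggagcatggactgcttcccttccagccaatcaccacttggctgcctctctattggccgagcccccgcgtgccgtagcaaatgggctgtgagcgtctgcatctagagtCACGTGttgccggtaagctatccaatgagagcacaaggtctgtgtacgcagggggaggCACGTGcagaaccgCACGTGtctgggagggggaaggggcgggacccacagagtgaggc
Tef: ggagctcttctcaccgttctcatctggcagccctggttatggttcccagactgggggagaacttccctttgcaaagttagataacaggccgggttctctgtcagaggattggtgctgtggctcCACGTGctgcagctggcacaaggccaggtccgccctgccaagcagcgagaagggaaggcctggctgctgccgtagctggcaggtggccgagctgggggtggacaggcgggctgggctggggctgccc
*Tef* was at 11.2, 10.6 and 12.6 FPKM in WT controls and 13.9 to 14.5 after PTX, and at 14.1, 10.6 and 15.0 in KO controls and 14.2 and 13.7 after PTX, with an interaction of -0.25 (SE 0.15). A match of letters does not show binding in these mice.

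Of 84 tested ribosomal protein genes, 70 had an interaction above 0, with medians of -0.21 in WT and -0.03 in KO. This lean rested on 1 library: the median interaction was 0.18 with all libraries, 0.01 without WT control 1 and -0.06 with the low-total covariate. Of 24 cholesterol synthesis genes, 17 had an interaction above 0, with medians of -0.13 in WT and -0.00 in KO. *Mvd* and *Mvk*, enzymes of the mevalonate steps, were at 33.0, 31.9 and 25.7 FPKM and at 21.7, 21.0 and 18.8 FPKM in WT controls. After PTX in WT they were at 19.8 to 25.3 and at 14.4 to 17.0 FPKM, with interactions of 0.44 (SE 0.16) and 0.40 (SE 0.12), and in KO their groups overlapped. Nuclear genes of oxidative phosphorylation had a median interaction of 0.03 over 84 genes, 47 of them above 0, and mitochondrial ones -0.10 over 13. Among 27 stress response genes, *Atf4*, the master factor of the integrated stress response, was at 70.2, 70.9 and 71.7 FPKM in WT controls and 48.1 to 55.8 after PTX, and at 45.9 to 57.2 in KO controls and 48.6 and 51.7 after PTX (interaction 0.39, SE 0.14). The KO controls of *Atf4* were at the level of WT PTX mice, and the WT controls stood apart from the other 3 groups.

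Connective tissue values turned on KO PTX 2. The 14 tested fibroblast and meningeal markers had medians of -0.19 in WT and -0.55 in KO, 13 had an interaction below 0, and 5 were lower in KO at an unadjusted p under 0.05. Over all 15087 tested genes, 7809 had an interaction below 0 and 2.57% were lower in KO at that p. The median interaction of fibroblasts and meninges was -0.49 with all libraries, -0.21 with the low-total covariate, -0.11 without KO PTX 2 and -0.76 without KO PTX 3. Their mean log2(FPKM + 1) was 2.69 in KO PTX 2 and 3.23 in KO PTX 3, against 2.93 to 3.66 in KO controls. For the 28 collagens the median interaction was -0.20 and turned to 0.14 without KO PTX 2. *Pdgfra*, a receptor for platelet-derived growth factor on mesenchymal cells, was at 1.88, 1.49 and 1.90 FPKM in KO controls and 1.03 and 1.54 in KO PTX mice, with an interaction of -0.68 (SE 0.24). *Lum*, a collagen-binding proteoglycan, was at 28.2, 25.6 and 25.8 FPKM in KO controls and 17.9 and 23.8 after PTX, where WT libraries ranged from 19.3 to 26.5 (interaction -0.53, SE 0.19). The lower value of the pair was KO PTX 2 for both genes. Skeletal muscle genes, carried along with dissected tissue, had medians of -2.68 in WT and -1.68 in KO and an interaction that ranged from -1.25 to 2.94 over the alternatives. *Actn3*, a fast muscle fibre gene, was at 23.4, 1.09 and 25.5 FPKM in WT controls, so the WT controls differed widely among themselves.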

How the data were processed

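Poly(A) RNA of whole DRGs from 11 mice was sequenced after stranded library preparation. The authors deposited 1 table with estimated counts and FPKM values per gene and library. Cutadapt, FastQC, HISAT2, StringTie and the build mm10 are named in the submitters' processing notes, without versions, and replicates were not pooled. How reads shared by near-identical genes were split is not given in the sources used here.

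The estimated counts were used as whole numbers. Genes with a mean of at least 0.5 FPKM were tested with edgeR 4.0.16 (R 4.3.3): TMM scaling, quasi-likelihood fit, 1 term per group and a term for labelled sex, contrasts for WT, KO and their difference, and Benjamini-Hochberg adjustment over all 15087 genes. Count totals per library were 52735648 to 80348732. SEs were derived from the F statistic. Single genes were also tested by an exact permutation of treatment labels within genotype, on the interaction contrast. The null of this permutation is no PTX effect in either genotype. Class levels were means of log2(FPKM + 1). DESeq2 1.42.0, limma 3.58.1 on log2(FPKM + 1) and log2(FPKM + 0.1), other filters, scaling and covariates, a replicate block and leaving out each library were alternatives, and the low-total covariate and the fit without 2 WT libraries were added after seeing the data. A self-test on simulated counts was passed. The labels do not say that libraries of a group came from separate litters or days, so p-values measure the spread between these samples.

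Same-numbered libraries of different groups had a mean correlation of their deviations of 0.053 over 15 pairs (range -0.228 to 0.234). Differently numbered ones had a mean of -0.026 over 30 pairs. Pairs of libraries numbered 3, all labelled female, were all positive, from 0.044 to 0.234. Deviations from means of so few libraries partly cancel, so these values cannot show whether mice were paired. The numbers were not taken to pair mice.

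The gene lists, the comparison and the named genes were chosen with earlier results of these data known. Named were genes past an adjusted p of 0.05 with edgeR or DESeq2, the 10 per direction with the largest interaction among genes separated in both genotypes, the genes the study followed, and per class up to 3 members of lowest interaction p and up to 2 of highest FPKM. Others are said to be named after their values were seen or for their position. RefSeq upstream windows were of GRCm38.p6. Some items are not reported here.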

Additional observations from a re-analysis of the deposited data

Results flagged for a closer look

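The response of *Pde10a* differed between genotypes by the test of the interaction itself: the log2 PTX difference was 0.38 in WT and -3.44 in KO, an interaction of -3.82 (SE 0.18, adjusted p = 1.5e-05 with edgeR). Both KO PTX libraries were at 0.22 FPKM and none of the other 9 was below 1.60. Over the alternatives in which the gene was tested, the interaction ranged from -3.94 to -1.74, the smallest on log2(FPKM + 1), and the largest adjusted p was 0.0042. The 2 KO PTX libraries are also low-total libraries, and within KO these cannot be told apart, while the low-total WT libraries had 1.60 and 2.91 FPKM.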

How the results depend on the processing

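The interaction of *Pde10a* kept its direction and passed the adjusted threshold in every alternative that tested it. A filter at 5 FPKM removed *Pde10a*, and edgeR then called 0 genes for the interaction (470 at an unadjusted p under 0.05), 0 in WT (1171) and 0 in KO (217). DESeq2 called 12 genes for the interaction, 309 in WT and 29 in KO. With the low-total covariate 2 genes were called for the interaction, *Pde10a* and *Plekhm3*, and 2 in KO, and rho was 0.282. The spinal cord covariate gave 3 genes in KO and a rho of 0.361, and the muscle covariate 19 genes in WT and 4 opposite classes. In WT, limma called 0 genes with a pseudocount of 0.1 (1858 unadjusted) or 1 (1861), and edgeR 0 without the sex term (1802). With each genotype fitted alone, 5 genes were called in WT and 4 in KO, with 1 opposite class. Without both low-total WT libraries, edgeR called 0 genes in WT (1203 unadjusted) and 5 in KO, rho was -0.0115 and 486 genes separated in opposite directions.

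Leaving out 1 library at a time gave 1 to 6 genes for the interaction, most without KO PTX 2 (6) and WT control 2 (4) and 2 each without WT control 1, WT control 3 or KO PTX 3. It gave 0 to 30 in WT, with 30 without WT control 3, 7 without WT control 2, 6 without KO control 2, 2 without KO control 1, and 0 without KO PTX 3, WT PTX 1, WT PTX 2 or WT control 1 (1088 to 2003 unadjusted). It gave 1 to 7 in KO, with 7 without KO PTX 2 or KO control 2 and 3 without KO PTX 3. The correlation ran from -0.0805 to 0.226, and 202 to 635 genes separated in opposite directions, a count that rises by construction with fewer libraries. Opposite classes numbered 0 to 7, with 0 without WT control 1, 4 without WT PTX 3 and 7 without KO PTX 2. Genes of opposite direction were 75 at a filter of 5 FPKM and 219 with no FPKM filter. Opposite classes were 0 at filters of 1 and 5 FPKM, 4 with no FPKM filter and 1 with limma at either pseudocount. Causes were not tested. With a replicate block in place of sex, 1 gene was called for the interaction and rho was 0.0370 and it changed no other call. For genes at 0.5 to 1 FPKM the median SE of the interaction was 0.433, against 0.185 over all tested genes. The part of depth in the *Pde10a* difference was not tested.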
